A study of Mus spretus with 19 samples.

Results

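Livers of wild mice from the upper course of the Domingo Rubio stream (DR6) were compared with livers from the Santa Olalla lagoon (SOL) on mouse expression arrays. The comparison takes every array that the labels give to these 2 sites, 3 of DR6 and 4 of SOL, which is 7 of the 19 arrays of the study. The animals were male Algerian mice, Mus spretus, a species related to the house mouse, and no strain, allele or treatment is given for any group. Total RNA from the livers of 9 mice was pooled at each of 5 sites. The labels call SOL unpolluted and DR6 polluted, as they do the phosphogypsum stacks (PS) and the lower and medium course of the same stream (DR1 and DR4). Age, time of capture and time of day are not given in the labels used here. Each pool was hybridized several times, so the replicates are technical, and a test below weighs a difference against variation in labelling and hybridization, not against variation among mice or pools. Each site also had its own slide and scan, so site, slide and scan cannot be told apart.

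The liver makes bile acids, glucose, urea and most plasma proteins, and it stores and exports metals. Its cells answer growth factors, stress and handling within a short time through immediate early genes such as Fos, Jun and Atf3, which encode transcription factors. Metallothioneins bind zinc, copper and cadmium. Cytochrome P450 enzymes modify steroids, drugs and pollutants, and receptors such as AHR, CAR and PXR induce genes of these enzymes.

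Levels are given as log2 intensity relative to the 75th percentile of the same array, so that a level of 0 is that percentile. Differences are DR6 minus SOL on the log2 scale, from the means of 3 and 4 arrays, with their standard error (SE). The SE comes from the limma fit of all 19 arrays and so rests on the spread within all 5 sites, not within these 2 alone. Calls required 2 things: an adjusted p under 0.05 in limma (Benjamini-Hochberg over all genes tested) and a difference of at least 2-fold, which is 1 on the log2 scale. The 75th percentile of intensity was 99.47 to 167.1 on the SOL arrays and 129.3 to 143.2 on the DR6 arrays, and the software marked 52% to 56.3% and 53.3% to 54.9% of their spots as well above background. SOL replicate 1 stood apart: it correlated with the other SOL arrays at r = 0.98 to 0.981 across genes, while those 3 correlated at 0.993 to 0.995 with each other and the DR6 arrays at 0.994 to 0.995. Genes are not independent replicates, so these values are descriptions. Where leaving out SOL replicate 1 ends or gives the call of a named gene, both values are given below. The tissue label was checked on 5 measured hepatocyte markers, of which none was called in limma and 3 had an unadjusted p under 0.05. Their summed linear level was 654 to 740 times the 75th percentile at SOL and 844 to 911 times at DR6. That of 13 exocrine pancreas markers was higher, 1400 to 1590 and 1710 to 1750, so both pools also held pancreas transcripts. The part of pancreas RNA in the values below was not tested. Apoa1, the main protein of high density lipoprotein, was at 8.21 ± 0.143 (SD, n = 4) at SOL and 8.16 ± 0.0514 (n = 3) at DR6.

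The probes are 60 bases long and were designed for Mus musculus, and how well each matches Mus spretus was not tested. The first 30 bases of the probes behind 6 of the differences that follow are printed 5′ to 3′ as deposited, so that a reader can see what was hybridized and compare it with a Mus spretus sequence. Coordinates are those of the deposited annotation on the mm8 mouse build.
Btc (chr5:92433122-92433181, minus strand): ggatccttgtacattttactttacaagaga
Atf3 (chr1:192871283-192871342, minus strand): cacagcagctttgtccttggctacaaactg
Scd1 (chr19:44448208-44448267, minus strand): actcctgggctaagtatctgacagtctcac
Mt1 (chr8:97069240-97069299, plus strand): cctgctgtcccgtgggctgctccaaatgtg
Slc30a10 (chr1:187169016-187169075, plus strand): acctgtatcggatccaaatcttcagtgtag
Ostb (chr9:65210904-65210963, minus strand): tgcatcttgatgactccataatgaaagaga

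Of 16345 genes and transcripts tested between DR6 and SOL, 1136 were called, a share of 6.95%. Of these, 763 were higher at DR6 (4.67% of those tested) and 373 were lower (2.28%). These shares are the background for the counts of gene groups below. The median difference over all genes was −0.004. Higher calls made up 67.2% of all calls with this scaling, 60.1% after quantile scaling and 55.8% when each array was centred on its median, which moved the median of all genes to −0.091. For 280 of the calls the lower site was below background on all its arrays. A bound on the fold can be given for 234 of them, and 38 were above background on no array of either site, so that these calls carry no measured level. Another 663 were well above background on all 7 arrays. Calls of dim genes depended on the background correction together with the constant used in it. Normexp was run with a constant of 50 added to every spot, which by itself shrinks the differences of dim genes. A dim call lost with normexp, here and below, therefore does not show that the gene is unchanged. In this setting 226 genes were called in the fit of all arrays and 290 in a fit of the 7 arrays alone.

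**Figure D1:**
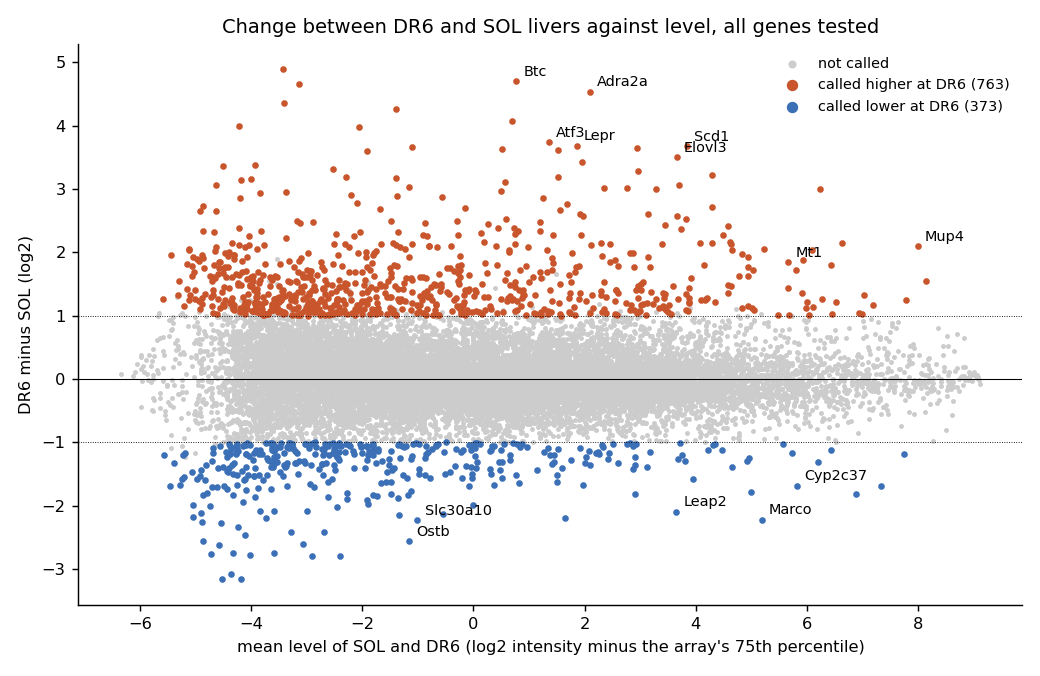
Difference between DR6 and SOL (log2, vertical axis) against the mean level of the gene over the 7 arrays (log2 relative to the 75th percentile of the array, horizontal axis), 1 point per gene, with called genes coloured by direction. Called genes lie beyond 1 on either side of 0, 763 above and 373 below, and Btc is at 4.71.

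Among named genes measured above background on each of the 7 arrays, the largest rise was that of Btc, betacellulin, a ligand of the epidermal growth factor receptor. Its level was −1.37, −1.77, −1.53 and −1.66 on the 4 SOL arrays and 3.1, 3.12 and 3.15 on the 3 DR6 arrays. All DR6 arrays were far above all SOL arrays, a difference of 4.71 ± 0.111 or 26.1-fold (adjusted p = 8.24e-15). Among 27 measured EGF receptor ligands and growth factor genes 6 rose and none fell, with a median of 0.10 against −0.004 for all genes. The receptor gene Egfr read 3.98, 4.01, 3.95 and 3.92 at SOL and 5.63, 5.62 and 5.54 at DR6, and rose by 1.63 ± 0.048 (adjusted p = 1.48e-13). Socs2, a feedback inhibitor of growth hormone signalling, rose by 1.67 ± 0.0856. The ligand genes Ereg and Areg were called as well, but Areg was above background on no array of either site and Ereg on 1 of the 4 SOL arrays. With normexp over the 7 arrays, Egfr, Btc and Socs2 kept their calls.

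Other receptor and signalling genes were among the 12 largest measured rises. Adra2a, an adrenergic receptor, was at −0.12, −0.14, −0.28 and −0.16 on the SOL arrays and at 4.22, 4.47 and 4.41 on the DR6 arrays, a rise of 4.54 ± 0.0624 or 23.3-fold (adjusted p = 7.24e-18). Lepr, the leptin receptor, was at 0.04, −0.05, 0.02 and 0.04 at SOL and at 3.75, 3.66 and 3.69 at DR6, a rise of 3.69 ± 0.0474 or 12.9-fold. The other probe of Lepr gave a smaller rise, 1.98. In both genes the groups were far apart and the repeats close together. Fst, which encodes follistatin, an inhibitor of activin, rose by 3.43 ± 0.0554, and Snf1lk, a salt-inducible kinase, by 3.63 ± 0.137. Npy, a neuropeptide, rose by 3.66 ± 0.133, and Hdc, the enzyme that makes histamine, by 3.60 ± 0.2, both from levels near the background at SOL (means of −2.93 and −3.71).

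**Figure D2:**
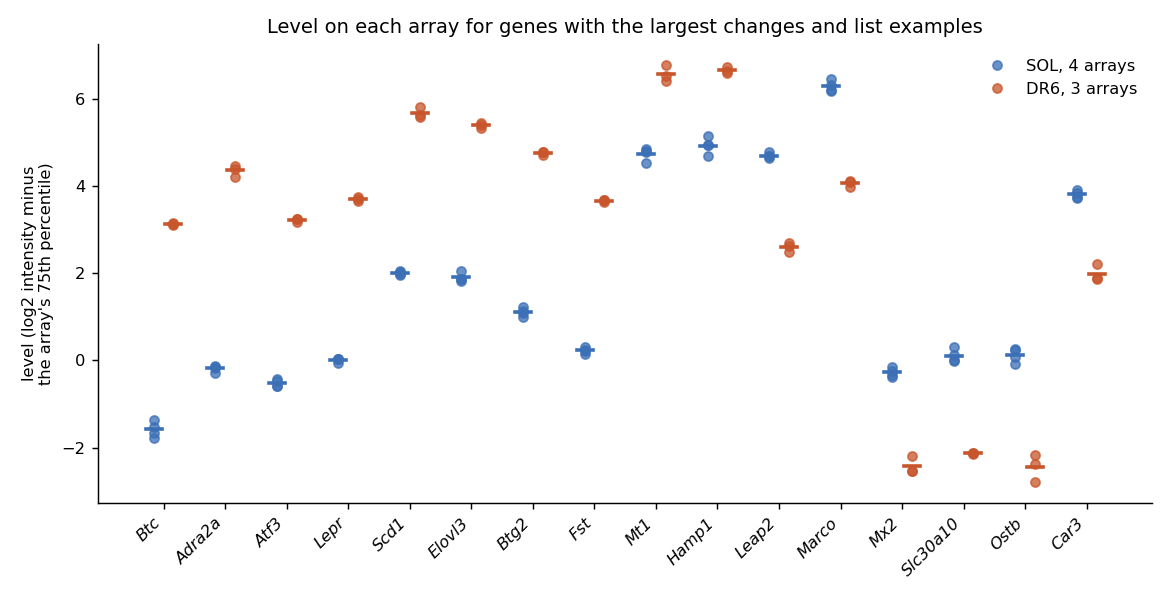
Level of 16 genes on each of the 7 arrays (log2 relative to the 75th percentile of the array, vertical axis), 1 point per array, SOL in blue and DR6 in orange, with the mean of each site as a bar. For Btc the 4 SOL arrays lie between −1.77 and −1.37 and the 3 DR6 arrays between 3.1 and 3.15, and for Marco the DR6 arrays lie below the SOL arrays.

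Immediate early genes were higher at DR6: 14 of 26 measured members rose and none fell, with a median of 1.12, where 4.67% of all genes rose. Atf3, a transcription factor of the stress response, was at −0.42, −0.58, −0.60 and −0.47 on the SOL arrays and at 3.26, 3.24 and 3.18 on the DR6 arrays. Every DR6 array was above every SOL array, and the rise was 3.74 ± 0.087 or 13.4-fold (adjusted p = 7.56e-15). Nr4a1, an orphan nuclear receptor, was at 1.46, 1.35, 1.21 and 1.23 at SOL and at 4.68, 4.59 and 4.50 at DR6, a rise of 3.28 ± 0.0667 or 9.72-fold. Myc rose by 2.29 ± 0.0594, Nr4a2 by 2.50 ± 0.117, Klf6 by 1.98 ± 0.107, Dusp1, a phosphatase that switches off MAP kinases, by 1.53 ± 0.0549, and Jun by 1.45 ± 0.0698. Not every member was called: Egr1 was at 1.71 ± 0.184 at SOL and 1.34 ± 0.107 at DR6, with overlapping arrays. Fos rose by 2.02 ± 0.126 from a dim level of −2.76, and its difference was 0.84 with normexp over the 7 arrays. Of the 14 calls 11 were kept in that fit.

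Of 27 measured p53 targets and DNA damage genes 11 rose and none fell, with a median of 0.59. Among these calls, Gadd45g and Btg2, an antiproliferative gene, are also counted among the immediate early genes. Btg2 was at 1.09, 1.23, 1.14 and 1.00 at SOL and at 4.78, 4.79 and 4.73 at DR6, and rose by 3.65 ± 0.0735 or 12.6-fold. Plk3, a stress kinase, read 3.02, 3.04, 2.76 and 2.89 on the SOL arrays and 5.61, 5.69 and 5.62 on the DR6 arrays, a rise of 2.71 ± 0.0717. Trp53inp1 rose by 2.57 ± 0.0842 from 2.31, 2.53, 2.32 and 2.36 to 4.93, 5.00 and 4.92. The sites did not overlap in Btg2, Plk3 or Trp53inp1. Gadd45b, a gene of growth arrest, rose by 2.27 ± 0.0646, and Sesn1 and Ddit4, which hold back mTOR signalling, rose by 2.43 ± 0.0823 and 2.15 ± 0.094. The best known targets of p53 itself were not called: Cdkn1a differed by 0.36 ± 0.0635 and Mdm2 by 0.15 ± 0.0765. Under normexp over the 7 arrays 8 of the 11 calls were kept.

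Other stress programmes showed few calls. Of 28 measured genes of ER stress and the amino acid response, Atf3 and Nupr1 rose and none fell (median −0.01). Nupr1, a stress-induced chromatin protein, was at 2.61, 2.90, 2.50 and 2.62 at SOL and at 3.91, 4.04 and 3.83 at DR6, a rise of 1.26 ± 0.106. Atf4 and Ddit3, regulators at the centre of this response, differed by 0.73 ± 0.0823 and 0.19 ± 0.0934 and were not called. Of 25 heat shock genes only Hspb1, a small chaperone, was called, with 1.69 ± 0.0858, while the inducible Hspa1a and Hspa1b differed by 0.64 ± 0.0724 and 0.35 ± 0.0978.

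Of 17 measured circadian clock genes 5 rose and none fell (median 0.41). Bhlhb2, a repressor in the clock, was at 1.68, 1.71, 1.83 and 2.08 at SOL and at 3.84, 3.79 and 3.81 at DR6, a rise of 1.99 ± 0.101 or 3.97-fold (adjusted p = 1.38e-10). Dbp, a clock output factor, was at 1.07, 2.81, 2.59 and 2.71 at SOL and at 3.91, 4.16 and 4.13 at DR6. Nfil3, which acts against Dbp, was at −0.14, 2.64, 2.71 and 2.78 at SOL and at 3.56, 3.84 and 3.90 at DR6. In both genes SOL replicate 1 was far below its repeats: the rise of Dbp was 1.77 with it and 1.36 without it, and that of Nfil3 was 1.77 and 1.06. Arntl, the activator of the clock, was at −2.05, 0.32, 0.42 and 0.51 at SOL and at −0.70, −0.43 and −0.39 at DR6. It differed by −0.30 ± 0.421 with SOL replicate 1, which lay below the DR6 arrays, and by −0.92 without it, when all DR6 arrays lay below the SOL arrays, and it was called in neither case. Per1 rose by 1.05 ± 0.131 and Nr1d1 by 1.34 ± 0.0714, though the 3 probes of Nr1d1 gave differences from 0.35 to 1.34. With normexp over the 7 arrays, or under at least 1 other setting, all of these calls but those of Dbp and Bhlhb2 were lost.

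In fatty acid synthesis 1 gene stood out. Scd1, the desaturase that makes monounsaturated fatty acids, was at 1.98, 2.03, 2.05 and 1.96 on the SOL arrays and at 5.83, 5.63 and 5.58 on the DR6 arrays, a rise of 3.68 ± 0.0696 or 12.8-fold (adjusted p = 5.07e-16). The sites were separated by many times the spread of the repeats. The other lipogenic enzymes did not move with it: of 21 measured members 2 were called, 17 had differences below 0, and the median was −0.31. Fasn, the fatty acid synthase, differed by −0.08 ± 0.0867. Acacb was the other call, at 1.21 ± 0.423, and it rested on SOL replicate 1 (1.41 against 3.92, 3.86 and 3.90 on the other SOL arrays): without that array the difference was 0.59 and the call was lost. Elovl3, an elongase of very long fatty acids counted here among the male-biased genes, was at 2.06, 1.86, 1.83 and 1.87 at SOL and at 5.46, 5.42 and 5.35 at DR6, a rise of 3.50 ± 0.0579 or 11.3-fold.

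Cholesterol synthesis differed little from SOL, with 2 of 25 members higher, none lower and a median of −0.04. Pmvk, a kinase of the mevalonate pathway, rose by 1.16 ± 0.082. Of 20 genes of sterol export and bile acids 1 rose and none fell (median 0.10). This was Cyp8b1, the hydroxylase that directs synthesis to cholic acid. It was at 2.58, 2.31, 2.74 and 2.60 at SOL and at 4.85, 4.86 and 5.07 at DR6, a rise of 2.37 ± 0.119 or 5.18-fold. Cyp7a1, the rate-limiting enzyme of the pathway, differed by 0.73 ± 0.0865, short of 2-fold. Ostb, a subunit of the basolateral bile acid exporter that is not in that list, had the largest fall among named genes above background on all arrays of both sites. It was at 0.23, −0.08, 0.07 and 0.26 at SOL and at −2.17, −2.79 and −2.38 at DR6, a fall of 5.92-fold (−2.57 ± 0.127, adjusted p = 1.01e-10). No array of one site overlapped with the other in Cyp8b1 or in Ostb.

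Fasting and glucose genes gave few and mixed calls. Of 35 measured PPARα targets, which carry out fatty acid oxidation, 1 rose and 2 fell (median −0.18). Fgf21, a fasting hormone, was at 0.72, 3.1, 2.86 and 2.92 at SOL and at 1.05, 1.09 and 1.22 at DR6, so that SOL replicate 1 lay below the DR6 arrays and the other 3 above them. It was called at −1.28 ± 0.438, and the difference was −1.84 without that array. The call of Fgf21 was lost in 10 of 19 alternative settings, among them the fit of the 2 sites alone, normexp in each form and leaving out any other single array. Ppargc1a, a coactivator of gluconeogenic and mitochondrial genes, rose by 1.41 ± 0.15. Slc2a2, the glucose transporter of hepatocytes, was at 3.76, 3.61, 3.82 and 4.07 at SOL and at 2.38, 2.37 and 2.53 at DR6, a fall of 1.39 ± 0.129. Ppp1r3c, a glycogen-targeting subunit of protein phosphatase, fell by 1.59 ± 0.237 from a dim level, a call lost with normexp. The glycogen synthase gene Gys2 rested on 1 measured DR6 array (7.50 against 6.32 to 6.67 at SOL).

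Amino acid breakdown was higher at DR6: of 28 measured genes of the urea cycle and amino acid breakdown 4 rose, none fell, and 25 had differences above 0, with a median of 0.64. Csad, the enzyme that leads from cysteine to taurine, was at 1.32, 1.16, 1.22 and 1.27 at SOL and at 4.24, 4.28 and 4.27 at DR6, a rise of 3.02 ± 0.0847 or 8.11-fold (adjusted p = 7.62e-14). Got1, an aminotransferase, was at 5.62, 5.59, 5.42 and 5.51 at SOL and at 7.32, 7.36 and 7.34 at DR6, a rise of 1.81 ± 0.068. Both genes separated the sites on every array. Aass, which starts lysine breakdown, rose by 1.17 ± 0.0635 and Cth, which makes cysteine, by 1.02 ± 0.0623. All 4 kept their calls with normexp over the 7 arrays, but that of Cth, close to the limit, was lost under at least 1 other setting, and that of Aass with normexp over all arrays. Cps1, the first enzyme of the urea cycle, differed by 0.83 ± 0.0979 and Otc, the next one, by −0.75 ± 0.0902, and neither was called.

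Of the genes that answer foreign compounds, those of the AHR had 5 measured members, of which 2 rose. Tiparp, an ADP-ribosyltransferase induced by AHR, was at 0.69, 0.54, 0.64 and 0.60 at SOL and at 3.18, 3.19 and 3.32 at DR6, a rise of 2.61 ± 0.114 or 6.11-fold. Cyp1a1, the best known target of AHR, was dim, at −2.39, −2.46, −2.06 and −2.13 at SOL and at −0.12, −0.39 and −0.12 at DR6, a rise of 2.05 ± 0.192. The 2 sites were apart on all arrays, and the difference of Cyp1a1 was 0.96 with normexp over the 7 arrays. Cyp1a2, which is much brighter, did not differ beyond the spread (3.83 ± 0.0574 at SOL and 3.74 ± 0.145 at DR6), and Nqo1 differed by −0.41 ± 0.102.

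Cytochromes of the CAR and PXR receptors did not rise: none of 32 was called higher in limma, 3 were lower (median −0.14), and at an unadjusted p under 0.05 there were 3 higher and 14 lower. Cyp2c37, a cytochrome that acts on arachidonic acid, was at 6.83, 6.67, 6.55 and 6.63 at SOL and at 4.96, 4.97 and 5.01 at DR6, a fall of 1.69 ± 0.0669. Cyp2b13 fell by 1.23 ± 0.0839 and Cyp2b10, the usual marker of CAR, by 1.15 ± 0.0871, a call lost when its 2 probes were averaged (−1.15 and −0.59) and with normexp. Cyp3a11, a marker of PXR, differed by −0.17 ± 0.119. Conjugating enzymes had 2 of 41 members higher and 3 lower, and 32 with differences below 0 (median −0.29). Gsta4, a glutathione transferase for lipid peroxides, fell by 1.50 ± 0.0686 and Ugt2b1, a glucuronosyltransferase, by 1.23 ± 0.0728. With normexp over the 7 arrays 3 of these 5 calls were kept, those 2 among them. Among NRF2 targets only the exporter gene Abcc4 was called, 1 of 19, a call lost with normexp, and Hmox1 differed by 0.35 ± 0.0963. Of 20 antioxidant enzymes Gpx3 and Selk rose, by 1.80 ± 0.144 and 1.12 ± 0.133, while Cat and Sod1 differed by −0.36 ± 0.065 and −0.16 ± 0.104. Gpx3 was dim at SOL (−2.33) and its difference was 0.74 with normexp over the 7 arrays.

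Genes that bind and move metals changed in both directions, 3 of 20 higher and 2 lower (median −0.15). Mt1, a metallothionein, was at 4.85, 4.52, 4.78 and 4.80 at SOL and at 6.42, 6.52 and 6.79 at DR6, a rise of 1.84 ± 0.121 or 3.58-fold (adjusted p = 3.48e-09). Mt2 was at 7.14, 7.04 and 7.28 on the 3 SOL arrays that measured it and at 8.47, 8.37 and 8.37 at DR6, a rise of 1.25 ± 0.137. The arrays of the 2 sites did not overlap for either metallothionein. Slc39a14, an importer of zinc, iron and manganese, rose by 1.34 ± 0.111 from 3.23, 3.00, 3.15 and 3.21 to 4.39, 4.48 and 4.58. Slc30a10, a manganese exporter, went the other way: it was at 0.12, −0.02, 0.30 and 0.01 at SOL and at −2.12, −2.11 and −2.14 at DR6, a fall of 4.69-fold (−2.23 ± 0.0899, adjusted p = 7.1e-12), and its other probe gave −1.66. Steap4, a metalloreductase, fell by 1.32 ± 0.0747. All of these but Steap4 kept their calls with normexp over the 7 arrays.

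In iron handling 2 of 19 genes rose and 1 fell (median 0.04). Hamp1 encodes hepcidin, the hormone that closes the cellular iron exporter, and was at 4.95, 4.69, 5.14 and 4.95 at SOL and at 6.64, 6.61 and 6.73 at DR6. This was a rise of 1.73 ± 0.152 or 3.30-fold. Tfrc, the transferrin receptor, was at 0.37, 0.36, 0.35 and 0.34 at SOL and at −0.95, −1.09 and −1.02 at DR6, a fall of 1.37 ± 0.051, with no overlap in either gene. With normexp over the 7 arrays Hamp1 kept its call, while Tfrc gave −0.92 and lost it. Ireb2, an iron regulatory protein, was called at 1.09 ± 0.152 and lost the call without SOL replicate 1 (0.90). Red cell genes were lower in the same comparison: 4 of 5 measured erythroid markers fell, with a median of −1.20, and 2 of the 4 calls (Hba-a1 and Alas2) were kept with normexp over the 7 arrays. Hba-a1, an α-globin, was at 8.36, 8.25, 8.42 and 8.33 at SOL and at 7.22, 7.10 and 7.16 at DR6. The summed linear level of the 5 markers was 754 to 781 times the 75th percentile at SOL and 359 to 375 times at DR6. The part of red cells in the values of Tfrc and the other iron genes was not tested. In bulk tissue fewer cells of a type and less RNA per cell cannot be told apart.

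Interferon response genes were lower at DR6: of 34 measured members 6 fell, none rose, and 27 had differences below 0, with a median of −0.40. Mx2, an antiviral GTPase, was at −0.25, −0.15, −0.37 and −0.33 at SOL and at −2.54, −2.19 and −2.53 at DR6, a fall of 4.43-fold (−2.15 ± 0.1, adjusted p = 4.82e-11). Ifi47, a GTPase induced by interferon γ, fell by 1.69 ± 0.115 from 0.75, 0.72, 0.80 and 0.80 to −0.95, −1.05 and −0.77, and Igtp, of the same family, fell by 1.12 ± 0.0726. DR6 lay below SOL on every array in these genes. Ifit1 and Rsad2, which answer type I interferon, had overlapping arrays, with differences of 0.44 ± 0.213 and 0.29 ± 0.141. Of the 6 calls, 2 (Ifi47 and Igtp) were kept with normexp over the 7 arrays, where Mx2 gave −0.93.

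Of 10 measured Kupffer cell and macrophage markers 1 fell, and 9 had differences below 0 (median −0.29). Marco, a scavenger receptor of macrophages, was at 6.19, 6.46, 6.32 and 6.21 on the SOL arrays and at 4.10, 4.13 and 3.99 on the DR6 arrays, a fall of 4.67-fold (−2.22 ± 0.0852, adjusted p = 3.82e-12). Clec4f and Cd5l, 2 other markers of resident Kupffer cells, differed by −0.76 ± 0.062 and −0.66 ± 0.0798, less than 2-fold. C1qa, a complement component, and Csf1r, the receptor of macrophage growth factor, differed by 0.01 and −0.002. The summed level of the 10 markers was 173 to 206 at SOL and 91 to 100 at DR6, in multiples of the 75th percentile, and its part in the interferon values was not tested. A linear sum follows its bright members, and Marco alone, with log2 means of 6.295 and 4.072, makes up a large part of this fall. The sum therefore does not show how many such cells the pools held. Leap2, a peptide made in liver, was at 4.78, 4.64, 4.69 and 4.69 at SOL and at 2.49, 2.63 and 2.69 at DR6, a fall of 4.27-fold.

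The immunoglobulin genes Igk-V and Ighg are in no list and were chosen by size of change or for differing from every site. Igk-V, a κ light chain, was at −0.28, −0.32, −0.19 and −0.26 at SOL and at −2.07, −2.24 and −1.98 at DR6, a fall of 1.83 ± 0.0767, and Ighg, a γ heavy chain, fell by 1.21 ± 0.143. With normexp over the 7 arrays both gave −0.88 and lost their calls. Of 8 markers of B cells and plasma cells, Cd79b was called higher (1.45 ± 0.115) from a dim level and none was lower (median 0.50), and the summed level of the list was 34.3 to 36.7 at SOL and 34.2 to 37.4 at DR6. Among 11 T and NK cell markers Gzmb and Klrd1 were called higher, both dim, and these calls and that of Cd79b were lost with normexp, while Cd3d differed by 0.08 ± 0.143. No MHC class II or antigen presentation gene of 11 and no neutrophil marker of 6 was called in limma, and 5 and 1 of them had an unadjusted p under 0.05. The acute phase proteins Saa1 and Saa2 differed by 0.06 ± 0.122 and 0.01 ± 0.145. Of 31 acute phase genes Socs3, a feedback inhibitor of IL-6 signalling, rose by 1.36 ± 0.074, A2m rose by 1.62 ± 0.0867 from a dim level, a call lost with normexp, and Steap4 fell as given above. Of 37 complement and coagulation genes only Pros1 was called, and it lost the call without SOL replicate 1 (1.26 with that array and 0.59 without it).

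Genes with a sex bias in mouse liver were compared between these 2 pools of males: 5 of 20 male-biased genes rose and 1 fell (median 0.34), and of 26 female-biased genes none rose and 3 fell (median 0.02). Mup4, a major urinary protein, was at 7.03, 6.95, 6.87 and 6.92 at SOL and at 8.93, 9.16 and 9.03 at DR6, a rise of 2.10 ± 0.1 or 4.29-fold. Mup5 rose by 2.03 ± 0.117, from 3.32, 3.68, 3.70 and 3.81 to 5.52, 5.66 and 5.80. Major urinary proteins are a family of near-identical copies, so a probe may take up signal from several of them, and their values are uncertain by gene. Mup1 shows this: its brightest probe differed by 0.65 and its other probes by 1.60 and 2.20. The 5 rises were those of Mup3, Mup4, Mup5, Elovl3 and Egfr, so the rises of the Mup genes are not separate results. Egfr is also counted above among the growth factor genes. Mup3 differed by 1.14 and lost its call with normexp and without DR6 replicate 1. Hsd3b2, a steroid dehydrogenase, fell by 1.59 ± 0.13, and of the female-biased genes Hao3, a hydroxyacid oxidase, fell by 1.36 ± 0.124.

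Carbonic anhydrases were lower, with 3 of 11 members called and 10 with differences below 0 (median −0.50). Car3, the abundant form of liver, muscle and fat, was at 3.76, 3.91, 3.85 and 3.73 at SOL and at 2.22, 1.89 and 1.88 at DR6, a fall of 3.53-fold (−1.82 ± 0.0902). Car8 fell by 1.20 ± 0.189 and Car6 by 1.12 ± 0.128, a call lost with normexp. Serpina7, the thyroxine-binding globulin of plasma, fell from 0.51, 0.51, 0.55 and 0.52 to −1.58, −1.68 and −1.55, which is 4.37-fold. The retinoid genes had 1 rise and 1 fall in 20. Aldh1a7, an aldehyde dehydrogenase, fell by 1.12 ± 0.0596. Cyp26a1, which degrades retinoic acid, was below background on every SOL array and was at least 4.73-fold higher at DR6, a call lost with normexp. Cell cycle genes were mixed, 3 of 29 higher and 2 lower (median −0.09): Ccnd1, which drives entry into the cycle, fell by 1.44 ± 0.0606, and Ccnb2, a mitotic cyclin, rose by 1.61 ± 0.192 from a dim level. Of these 5 calls that of Ccnd1 alone was kept with normexp over the 7 arrays. Of 28 collagens and matrix genes 4 rose, among them Lum at 1.43 ± 0.0637. None of these 4 kept its call with normexp over the 7 arrays. The matrix protein gene Fmod also lost its call without SOL replicate 1, where it differed by 0.80.

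The respiratory chain, the ribosome and the proteasome gave no calls in limma. None of 71 oxidative phosphorylation genes, 56 ribosomal protein genes or 31 proteasome genes was called, with medians of −0.10, 0.07 and 0.12. Small differences were present: 29, 16 and 12 of them had an unadjusted p under 0.05, and over all genes 7180 passed the adjusted p alone, without the 2-fold limit.

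**Figure D3:**
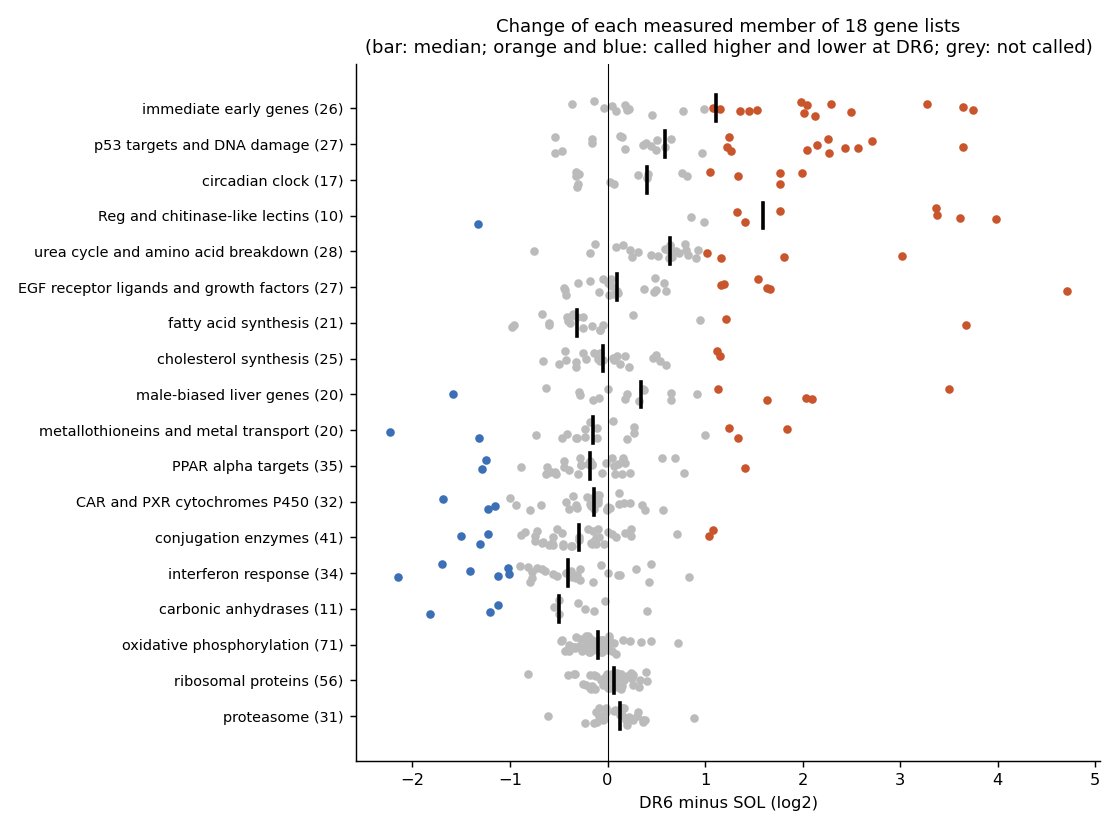
Difference between DR6 and SOL (log2, horizontal axis) of each measured member of 18 gene lists, 1 line per list with the number of members in parentheses. Points are genes, orange where called higher and blue where called lower at DR6 and grey where not called, and the bar is the median of the list: 1.12 for immediate early genes, −0.40 for interferon response genes and −0.10 for oxidative phosphorylation.

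The lectin genes of the Reg family, which are made in pancreas and gut and can be induced in liver, were higher at DR6: of 10 measured Reg and chitinase-like lectin genes 7 rose and 1 fell, with a median of 1.59. Pap, the Reg3b gene, was at −0.37, −0.01, −0.41 and −0.35 at SOL and at 3.44, 3.31 and 3.26 at DR6, a rise of 3.62 ± 0.0967 or 12.3-fold. Reg2 rose by 1.77 ± 0.0685 from 4.24, 4.05, 3.87 and 4.04 to 5.87, 5.84 and 5.76. Reg3a was between −4.21 and −3.94 at SOL, where 2 of the 4 arrays were above background, and at −0.14, −0.05 and −0.01 at DR6, a difference of 3.98 ± 0.0893. In these 3 genes the sites were far apart, and they were the calls of the group that normexp over the 7 arrays kept. Reg3d and Reg3g were below background at SOL and at least 3.84-fold and 2.57-fold higher at DR6. Reg1 differed by 0.99 ± 0.142, just under the 2-fold limit, and passed it without SOL replicate 1 (1.05), with the replicate number as a block (1.03) and in 4 other settings.

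Markers of pancreas and gut were measured beside the Reg genes, and their part in the Reg values was not tested. Of 13 measured exocrine pancreas markers, all above background on all 7 arrays, 1 rose, the trypsinogen-like 1810009J06Rik (from 1.89, 1.80, 1.68 and 1.76 to 4.83, 4.78 and 4.71). The median of the list was 0.20 and its summed level was 1400 to 1590 at SOL and 1710 to 1750 at DR6, in multiples of the 75th percentile. Cpa1, a carboxypeptidase of pancreatic juice, was at 7.14 ± 0.0668 at SOL and 7.63 ± 0.0499 at DR6. Islet markers, several of them dim, were higher at DR6: 5 of 8 rose, with a median of 1.18 and a summed level of 2.04 to 2.41 at SOL and 4.62 to 4.86 at DR6. Ins2, an insulin gene, was at 0.14, −0.14, −0.01 and −0.06 at SOL and at 1.18, 1.19 and 1.29 at DR6, a rise of 1.23 ± 0.122. Of 5 gut markers 3 rose: Defa1 by 2.13 ± 0.254 and Defcr6 by 2.26 ± 0.331, both defensins of Paneth cells, and Agr2, a protein of mucous cells, by 1.95 ± 0.234. The other 2, Fabp2 and Vil1, differed by −0.93 and −0.54, and as Fabp2 is by far the brightest, the summed level of the list was 55.1 to 68 at SOL and 31.4 to 35.5 at DR6. All 8 called islet and gut markers lost their calls with normexp over the 7 arrays.

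Other cell types showed few calls. None of 7 endothelial markers, 5 cholangiocyte markers or 6 muscle markers was called in limma, with medians of −0.08, 0.33 and 0.55, and 3, 5 and 6 of them had an unadjusted p under 0.05. Of 10 stellate cell and fibroblast markers Col1a1 and Lum rose, both calls lost with normexp, and the summed level was 57.6 to 66.1 at SOL and 68.3 to 72.4 at DR6. Of 3 adipose markers Cfd was called, with a difference of 1.11 that was 0.89 and no longer a call without SOL replicate 1. Of 4 kidney markers Umod was called, from a level above background on 1 SOL array, and lost the call with normexp, and Kap was at background on all arrays of both sites.

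Some genes were measured at one site alone, and only a bound on their fold can be given. Cacnb4, a calcium channel subunit, was below background on all SOL arrays and above it on all DR6 arrays, and was at least 7.72-fold higher at DR6. The same held for Defcr23, a defensin (at least 4.76-fold), Cdx2, a transcription factor of the gut (at least 3.87-fold), and Arid5a, an RNA-binding protein (at least 3.85-fold). In the other direction Gluld1, a glutamine synthetase-like gene, was at least 6.92-fold lower at DR6, followed by Tmie (at least 4.18-fold), the epidermal protease Asprv1 (at least 3.73-fold), Serpine2 (at least 3.01-fold), Chrna2 (at least 2.74-fold) and Zfp652 (at least 2.51-fold). The bound sets the mean of the brighter site against the higher of the dim probe's own signal and the lowest signal that counted as above background on each array of the dimmer site. All 10 of these genes lost their calls with normexp.

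The DR6 level was also set against each of the 3 other polluted sites, to see which genes differed from all of them. Against PS 1194 genes were called (7.3% of 16345, 4.79% higher and 2.51% lower), against DR1 1226 (7.5% of 16344, 4.24% higher and 3.26% lower) and against DR4 1007 (6.16% of 16344, 3.78% higher and 2.39% lower). The split depended on scaling: higher calls were 65.6%, 56.5% and 61.3% of the calls against PS, DR1 and DR4, and 47.4%, 44.6% and 50.8% when each array was centred on its median. These comparisons share the DR6 arrays. A set of 69 genes was higher at DR6 than at all 4 other sites (0.422% of 16343) and 32 were lower (0.196%), of which 54 and 15 have a symbol. A probe with signal at 1 site passes the filter, so a higher gene can enter through DR6 alone. Cdx2, Pkd1l2, Defcr23 and Angptl7 were among those that did so, with signal on all 3 DR6 arrays and on none elsewhere. So were Pln, Ces7 and Ereg, with signal on only 1 SOL array besides DR6, and Ntf3 and Trim7, with signal on only 1 DR4 array besides DR6. These are examples, not a full count. The 2 counts are therefore not compared. Scd1 was higher by 3.68, 4.56, 2.78 and 4.27 than at SOL, PS, DR1 and DR4, and Atf3 by 3.74, 4.38, 2.81 and 2.50. Csad (3.02, 2.31, 3.94 and 3.31), Btg2 (3.65, 3.52, 2.25 and 1.76) and Lepr (3.69, 3.02, 3.86 and 1.25) also stood above every other site. So did Bhlhb2, Jun, Nupr1, Aass and the islet gene Ins2, and the dim Ins1, Ppy, Defa1, Defcr6, Agr2, Tff3 and Prap1 of islets and gut.

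Lower at DR6 than at every other site were Slc30a10 (−2.23, −1.63, −2.54 and −2.30 against SOL, PS, DR1 and DR4), Ostb (−2.57, −1.70, −2.24 and −1.58) and Ifi47 (−1.69, −1.34, −1.65 and −1.10). The cytochromes Cyp2b10 and Cyp2c44, the immunoglobulins Igk-V and Ighg, Sfrp1, an inhibitor of Wnt signalling, and Ppp1r3c belonged here too. Asprv1 was above background on all arrays of the other 4 sites and on none at DR6. Crct1, Sprrl7, the keratin gene Krt15 and Calml3 were also in this set and above background on no DR6 array. Of these, Krt15 was at background on all DR1 arrays too, and Sprrl7 on all PS arrays. The part of tissue other than liver in these differences was not tested.

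Many large differences from SOL were not in these sets. Btc was 4.71 above SOL and 4.46 above PS, but 1.37 above DR1 and −0.70 against DR4. For Nr4a1 the differences were 3.28, 3.89, 0.05 and 0.60, and for Elovl3 3.50, 3.40, 0.55 and 0.68, with small differences from the 2 other stream sites in both genes. Adra2a was 4.54 above SOL and 0.73 above DR4. The metallothionein Mt1 was 1.84 above SOL and 0.48, −0.36 and −0.67 against PS, DR1 and DR4, and Hamp1 had 1.73, 0.53, −0.22 and −0.52. Some list medians were also above SOL at the other stream sites. For p53 targets and DNA damage genes they were 0.90 at DR1 and 0.489 at DR4, against 0.586 at DR6. For immediate early genes they were 0.795, 0.847 and 1.116, and for AHR targets 1.28, 1.13 and 0.898. Those of Reg and chitinase-like lectins were 3.865, 0.124 and 1.592. Of 25 cholesterol synthesis genes 2 were higher than at SOL and 20 higher than at PS. Exocrine pancreas markers were higher than at PS in all 13 of 13, than at DR1 in 8 and than at DR4 in 13.

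**Figure D4:**
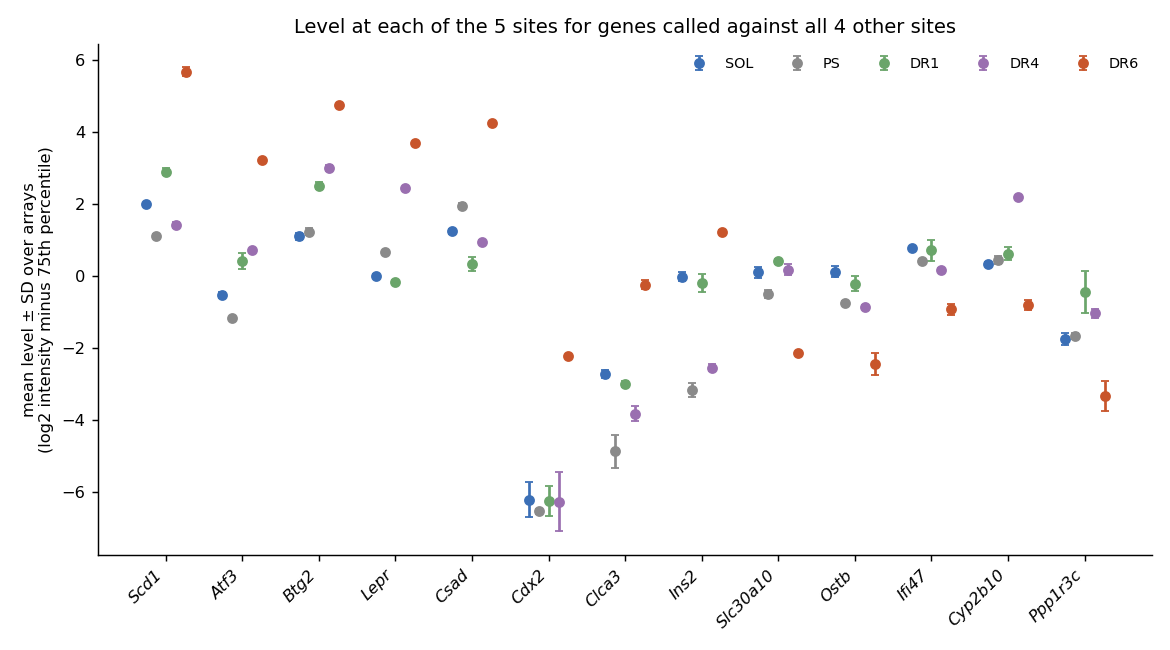
Mean level at each of the 5 sites (log2 relative to the 75th percentile of the array, vertical axis) of 13 genes that were called in the same direction against all 4 other sites, with error bars of 1 SD over the arrays, 4 per site and 3 at DR6. The DR6 point is the highest for the 8 genes on the left, from Scd1 to Ins2, and the lowest for the 5 on the right, from Slc30a10 to Ppp1r3c.

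With the 5 pools as units and DR6 set against the mean of the other 4, 1 gene of 16345 was called (0.00612%), Cdx2 (adjusted p = 0.0385 in limma). At an unadjusted p under 0.05 there were 853. Cdx2 was above background on all 3 DR6 arrays and on no array of the 4 other sites. It passed the signal filter through DR6 alone, and the fit lends the single DR6 pool the spread of 4 pools at background, so nothing is read from this call. With normexp no gene was called in it, and 404 had an unadjusted p under 0.05.

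Where a gene had several probes, they were set side by side. Of 226 called genes with 2 or more kept probes, 205 (90.7%) had all probes changing in the direction of the call and 103 (45.6%) had all of them at 2-fold or more, while 910 called genes rested on 1 probe. For Egfr 5 of 6 probes rose, by 1.63, 1.46, 1.44, 1.31 and 1.12, and the sixth, which lies furthest upstream, gave −0.39. The start of the brightest and of the differing probe are printed because they carry this contrast.
Egfr, brightest probe (chr11:16813815-16813874, plus strand): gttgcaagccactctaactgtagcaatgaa
Egfr, differing probe (chr11:16655638-16655697, plus strand): ccactagttaaacattggtaatctgctttt

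**Figure D5:**
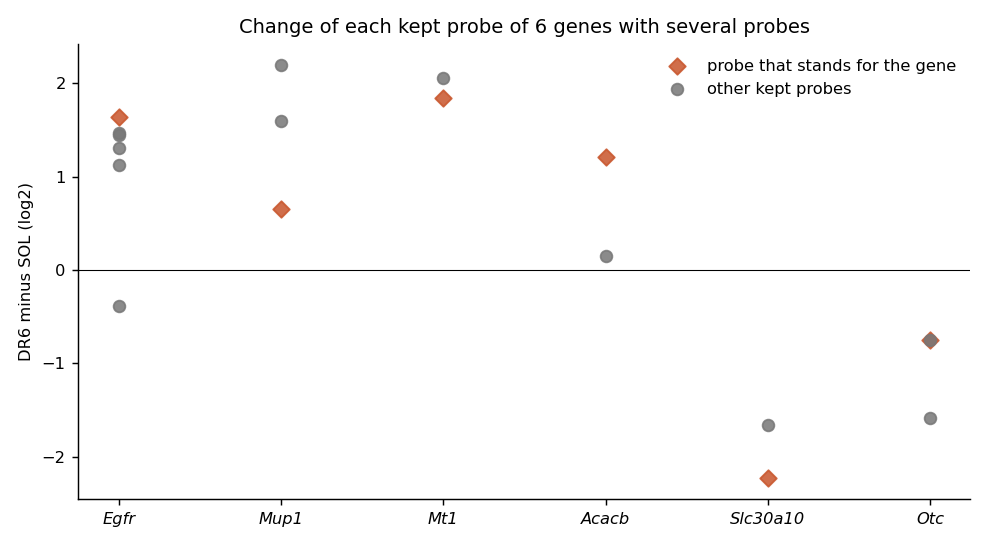
Difference between DR6 and SOL (log2, vertical axis) of each kept probe of 6 genes with several probes (horizontal axis), with the probe that stands for the gene as a diamond and the others as circles. The 2 probes of Mt1 lie close together (1.84 and 2.06), and those of Egfr spread from −0.39 to 1.63.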

How the data were processed

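RNA was labelled with Cy3, per the labels' protocols, and hybridized to 1-colour Agilent mouse arrays. The deposited scanner files hold linear intensity per spot, background-subtracted by the authors. The submitters' processing notes name Agilent Feature Extraction 9.5.3.1. The deposited columns gMeanSignal and gBGMedianSignal, which normexp uses, are raw intensity per the file headers. Other deposited columns used are flags of 0 or 1. Gene names, mm8 coordinates and probe sequences come from the files. In the design file of the DR1 slide 5.84% of gene spots carry another name, so names were taken from the newer one through the probe. A further deposited table, of all arrays together, holds the same intensity rounded (largest difference 0.497%), not centred, with column medians of 9.72 to 24.8.

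Of 45018 spots per array 1639 controls were left out, which left 43379 spots of 41174 probes. Intensity was put on the log2 scale, the array's 75th percentile was taken off, spots with an outlier flag were dropped, and repeated spots of a probe were averaged. Probes with the flag for signal on 3 or more arrays of any site were kept (23457), and the brightest stood for its gene (16346 genes, 11752 with a symbol, 16003 measured on all arrays). With limma 3.58.1 (R 4.3.3) site means were estimated from all 19 arrays together, so that the sites share 1 estimate of the spread. Tests are two-sided, and p-values were adjusted by Benjamini-Hochberg per comparison over all genes. A further fit used the 5 site means. The fit was tested on simulated data. The number of arrays limits the precision.

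Named genes were the 12 largest measured rises and 12 falls among called genes with a symbol, the 6 and 6 with the largest bounds, the first 2 members and the 3 largest calls of each of 48 lists, and 8 and 8 of the genes called against all 4 other sites. Any other gene in the text is a list member or was chosen after its values were seen. The members of the comparison, the lists and the tests were chosen with earlier results of these data known. The alternatives were other scalings, background corrections, filters, probe rules, the 2 sites alone, the replicate number as a block and leaving out each array. Deviations from the site mean correlated at 0.067, 0.159 and 0.09 between DR6 and SOL arrays with the same number. Between arrays with different numbers they correlated at −0.175 to 0.166, so the arrays were not treated as pairs. Some genes that this rule picks are not reported here.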

Additional observations from a re-analysis of the deposited data

Results flagged for a closer look

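Among the 4 SOL repeats of each named gene, 23 of 191 sets (12%) had 1 array further from the others than Dixon's 95% limit, which chance gives in about 1 of 20 sets. The 3 DR6 arrays are too few for this rule. In 14 of the 23 sets the array was SOL replicate 1. It read lower than the median of the other 3 in Abcc4 (−1.99 against −1.26), Acacb (1.41 against 3.90), Arntl (−2.05 against 0.42), Ccnb2 (−2.55 against −1.50), Cfd (−0.90 against −0.01), Dbp (1.08 against 2.71), Fbp1 (6.27 against 8.02) and Fgf21 (0.72 against 2.92). The same held for Aass (6.54 against 6.63), Fmod (−5.35 against −3.71), Ireb2 (1.77 against 2.56), Nfil3 (−0.14 against 2.71), Plscr2 (−2.77 against 0.37) and Pros1 (−0.74 against 1.92). SOL replicate 2 stood apart in Car8 (1.59 against 2.12), Cyp7a1 (3.04 against 3.29), Krt7 (−1.05 against −1.53), Pap (−0.01 against −0.37), Pecam1 (−1.34 against −1.18) and Rpl4 (3.62 against 3.98). SOL replicate 3 stood apart in Gzmb (−3.27 against −3.02), and SOL replicate 4 in Mup3 (−2.48 against −3.16) and in Pln, a regulator of the calcium pump (−1.52 against −5.84), whose 3 DR6 arrays read −2.12, −2.07 and −1.50. All values are log2 levels.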

How the results depend on the processing

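None of the 125 named calls between DR6 and SOL changed sign in these settings. The 1136 calls between DR6 and SOL became 226 with normexp, 277 with normexp and quantile scaling, 290 with normexp on the 2 sites alone and 641 when a gene had to be above background on every array. In the same order without the 2-site fit, calls against PS (1194) became 259, 304 and 655, against DR1 (1226) 271, 300 and 682, and against DR4 (1007) 295, 241 and 592. Genes that differed from all 4 sites numbered 17, 18 and 50, and 153 with no filter. The 1 call with pools as units became 0 with normexp. Normexp raised dim probes on 4 arrays of other sites: their median intensity became 94.6 to 753, against 68 to 74.2 at SOL and DR6. Leaving out 1 array gave 1041 to 1183 calls between DR6 and SOL. With the replicate block there were 1168, of which 1094 were shared. Of 125 named calls 71 were lost with normexp, 61 in the 2-site fit and 61 with quantile scaling added. Centring on the median lost 5, the 2 sites alone 8 and leaving out SOL replicate 1 lost 5. Without that array Plscr2 fell by 2.67, against 1.88 with it. The 2-site normexp fit, the fit with normexp and quantile scaling together and a call that also needs signal on every array of the higher site (976 calls) were added after the data were seen.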
